A study of Homo sapiens with 12 samples.

Results

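Solute carriers are membrane proteins that move nutrients, ions, vitamins, drugs and waste products across the plasma membrane and the membranes of lysosomes, Golgi and secretory vesicles. The genes described here are those whose symbol starts with SLC and whose level averaged at least 1 CPM (read count scaled to the library total) over all 12 libraries. The mitochondrial SLC25A family, the glucose carriers of the SLC2A family, the fatty acid carriers SLC27A, the bile acid carriers SLC10A, SLC37A4 and SLC16A3 were left out. This gave 179 of the 26485 genes in the table. Of 407 rows with an SLC symbol, 85 belonged to the families or symbols left out and 143 of the remainder lay below 1 CPM, 20 of them with no count in any library. The members were thus chosen by their mean level over all libraries, which is a description and not a finding: SLC12A3, SLC16A8 and SLC22A17, at 1.04, 1.09 and 1.26 CPM, were just inside the limit, and SLC15A2, SLC26A3 and SLC17A1, at 0.983, 0.978 and 0.920 CPM, just outside. All 179 passed the filter of the test. By symbol and function 170 are carriers, and 9 are adaptor proteins, opposite-strand genes or pseudogenes that share the prefix.

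RNA came from 4 stable lines of HepG2, a human hepatoma cell line. The lines carried the ZHX3-directed CRISPR vectors sgZHX3-2 (Z2), sgZHX3-5 (Z5) and sgZHX3-9 (Z9), or the vector without a guide (Empty). ZHX3 is a zinc finger and homeobox protein of the nucleus. All 4 lines were transfected by lipofection, selected with blasticidin and grown in low-glucose medium with serum, a glutamine dipeptide and added non-essential amino acids, so Empty shared all of these with the others. Each line was plated in 3 wells (a, b and c), and the labels do not say whether a line is a clone or a pool. The wells are repeats of 1 line, so the p-values below measure the spread between wells and not between independently made lines, and in bulk RNA fewer cells of a type and less RNA per cell cannot be told apart.

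A hepatocyte takes up most nutrients of the portal blood through such carriers. Amino acids enter by sodium-coupled symporters and by exchangers, organic anions and cations by OATP and OAT family proteins, metal ions by ZIP proteins, while ZnT proteins, MATE proteins and the heteromeric organic solute transporter move their substrates out of the cytosol. Golgi carriers bring activated sugars and sulfate to the enzymes that modify secreted proteins.

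The promoters of 4 members are shown because the results below turn on these genes. They are the 2 with the largest rise and the 2 with the largest fall among called members for which the RefSeq promoter table (GRCh38.p14) lists a single start. The window of SLC38A4 lies inside that gene's RefSeq record (chr12:46764761-46832431), which reaches further upstream, while the other 3 windows end just before the first base of their gene's record. Each run gives the 250 bases before the start, 5′ to 3′ on the gene's strand, with motif matches on either strand in capitals. The motifs searched were GGGCGG, known as the GC box, CCAAT, the box bound by the factor NF-Y, and TATAAA, the core of a TATA box, and none of the matches printed overlap. SLC19A3 and SLC38A4 were higher in the 3 ZHX3-labelled lines, and SLC51B and SLC18B1 were lower.
SLC19A3 (chr2:227718029-227718278, minus strand): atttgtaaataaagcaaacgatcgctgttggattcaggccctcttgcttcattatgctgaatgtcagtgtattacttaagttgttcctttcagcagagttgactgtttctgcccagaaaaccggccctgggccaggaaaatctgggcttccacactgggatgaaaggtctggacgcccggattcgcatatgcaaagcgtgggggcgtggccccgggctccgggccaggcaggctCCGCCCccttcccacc
SLC38A4 (chr12:46825998-46826247, minus strand): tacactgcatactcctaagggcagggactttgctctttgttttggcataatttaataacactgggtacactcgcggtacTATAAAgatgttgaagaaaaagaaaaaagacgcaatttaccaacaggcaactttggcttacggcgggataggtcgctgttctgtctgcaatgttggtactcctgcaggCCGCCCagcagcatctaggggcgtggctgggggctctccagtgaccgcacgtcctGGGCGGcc
SLC51B (chr15:65045137-65045386, plus strand): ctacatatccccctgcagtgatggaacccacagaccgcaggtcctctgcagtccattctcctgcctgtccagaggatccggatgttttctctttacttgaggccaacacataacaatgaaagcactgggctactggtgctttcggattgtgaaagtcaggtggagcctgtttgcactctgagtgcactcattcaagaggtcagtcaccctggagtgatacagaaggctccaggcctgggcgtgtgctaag
SLC18B1 (chr6:132798638-132798887, minus strand): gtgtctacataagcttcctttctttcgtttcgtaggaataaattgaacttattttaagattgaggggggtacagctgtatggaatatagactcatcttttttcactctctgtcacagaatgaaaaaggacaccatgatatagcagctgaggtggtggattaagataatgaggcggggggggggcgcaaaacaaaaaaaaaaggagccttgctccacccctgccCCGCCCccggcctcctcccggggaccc
The window of SLC19A3 held 1 match, the letters CCGCCC 16 bases before the start. That of SLC38A4 held 3, at 8, 63 and 171 bases before the start, the last of them TATAAA. SLC18B1 had 1 match, 27 bases before the start, and SLC51B had none. A promoter was listed for 136 of the 179 members by symbol, of which 21 rose and 19 fell, the first listed start being used where a gene had several. GGGCGG stood in 63.2% of the member promoters, against 42.3% of all 27305 promoters in the table. CCAAT stood in 25.7% of them, against 33% of all, and TATAAA in 5.88%, against 11.1% of all. The members were chosen for a level of at least 1 CPM, while the 27305 promoters had no such limit. These shares therefore cannot tell a trait of carriers from one of expressed genes, which was not tested. Among members that rose or fell, GGGCGG stood in 66.7% and 52.6%, CCAAT in 14.3% and 31.6%, and TATAAA in 14.3% and 0%. Such matches are letters in a window and were not tested as binding sites.

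Library totals ran from 50864744 to 65428204 counts, of which the 179 members took 1.51% to 1.68%. ZHX3 itself averaged 34.5 ± 0.620 CPM in Z2, 32.9 ± 0.505 in Z5 and 34.3 ± 0.713 in Z9, against 33.03 ± 0.421 in Empty (SD, n = 3 wells each). The mean of the 3 lines did not pass the test against Empty (log2 fold change 0.037 ± 0.041, edgeR adjusted p = 0.544), and a gene-level count shows neither small insertions or deletions nor protein. Of the 11 hepatocyte markers 11 were at 1 CPM or more, with a summed level of 49366 to 55013 CPM over the 9 ZHX3-labelled wells and 55206 to 56286 in Empty. That sum did not overlap between the groups. Albumin (ALB) had mean levels of 11517 CPM in Z2, 11480.2 in Z5 and 11974 in Z9, against 17529 in Empty. Without ALB the other 10 summed to 37748 to 42639 CPM in the labelled wells and 37849 to 39214 in Empty, which overlapped. These 10 went in both directions. SERPINA1 averaged 10936 CPM in Z2, 10723 in Z5 and 10086 in Z9, against 8730.2 in Empty. APOB averaged 7537 CPM in Z2, 7852 in Z5 and 7047 in Z9, against 8471 in Empty. The summed levels of 4 markers each were 46.6 to 74.0 CPM in the labelled wells and 43.4 to 53.7 in Empty for leukocytes, 6.64 to 8.57 in the labelled wells and 6.20 to 6.39 in Empty for endothelium, and 42.4 to 56.4 in the labelled wells and 45.8 to 48.1 in Empty for fibroblasts. For cholangiocytes they were 816 to 1090.1 CPM in the labelled wells and 879.6 to 962 in Empty. The endothelial sum did not overlap between the groups either. Its markers did not move together. CDH5 averaged 1.67 CPM in Z2, 1.63 in Z5 and 1.32 in Z9, against 0.485 in Empty. PECAM1 averaged 5.68 CPM in Z2, 4.64 in Z5 and 5.80 in Z9, against 5.11 in Empty. VWF was lower than Empty, at 0.562 CPM in Z2, 0.508 in Z5 and 0.595 in Z9, against 0.694. The part of these markers in the results below was not tested. PTPRC and CD3E of leukocytes, KDR of endothelium, COL1A2 of fibroblasts and KRT7 of cholangiocytes were at or near 0. Most of the leukocyte sum was CD68, at 61.1 CPM in Z2, 56.6 in Z5 and 56.0 in Z9, against 46.7 in Empty.

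The carriers as a whole moved in both directions. Genes were tested with edgeR's quasi-likelihood test over the whole table, and an adjusted p (Benjamini-Hochberg) under 0.05 is a call. Values in brackets further on are log2 fold changes of the mean of the 3 lines minus Empty, ± SE where given, with the edgeR adjusted p, and ± beside CPM is the SD over 3 wells. For the mean of Z2, Z5 and Z9 against Empty, 27 members rose (15.1%), where 13% of all 15289 tested genes rose, and 26 fell (14.5%), where 12.6% of all genes fell. Those shares lie near the background of the table. The median log2 fold change of the members was 0.0074, beside 0.0029 over all tested genes. All 53 called members were carriers, and none of the 9 genes that only share the prefix was called. The lines' own counts, all against the same 3 Empty wells, were 24 higher and 23 lower in Z2 (all genes 12.4% and 11.5%), 22 and 12 in Z5 (8.27% and 6.68%) and 24 and 15 in Z9 (9.66% and 9.58%). In 20 members (11.2%) all 9 ZHX3-labelled wells lay above all 3 Empty wells, and in 17 (9.5%) all lay below, where 8.83% and 8.31% of all tested genes did. Changes of at least 2-fold were few, with 2 members higher, SLC19A3 and SLC38A4, and 2 lower, SLC6A12 and SLC43A3, where 1.85% and 0.562% of all genes passed that limit.

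The number of calls depends on the Empty wells. Without Empty a, b or c in turn, 12, 16 or 17 members fell instead of 26, and without Empty b 18 rose instead of 27. Without Empty a, 12 rose in Z2, 4 fell in Z5 and 15 rose in Z9, and the falls in Z5 numbered 20 without Z2 b, 4 without Z5 b and 5 without Z5 c. With the wells of a line summed and the lines taken as units, Empty is a single unit that is assumed to vary like the other 3. In that fit 11 members rose, as did 3.95% of all genes, and 5 fell, as did 2.69% of all genes. Those that fell were SLC43A3, SLC16A7, SLC51B, SLC18B1 and SLC39A3. Those that rose were SLC19A3, SLC38A4, SLC44A2, SLC35G2, SLC22A15, SLC6A14, SLC1A2, SLC22A11, SLC43A2, SLC44A3 and SLCO2B1. The other 37 calls over wells ended there, among them SLC6A12 (adjusted p = 0.141), SLC12A7 (0.161), SLC5A9 (0.117), SLC30A10 (0.0668) and SLC38A6 (0.122).

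**Figure D1:**
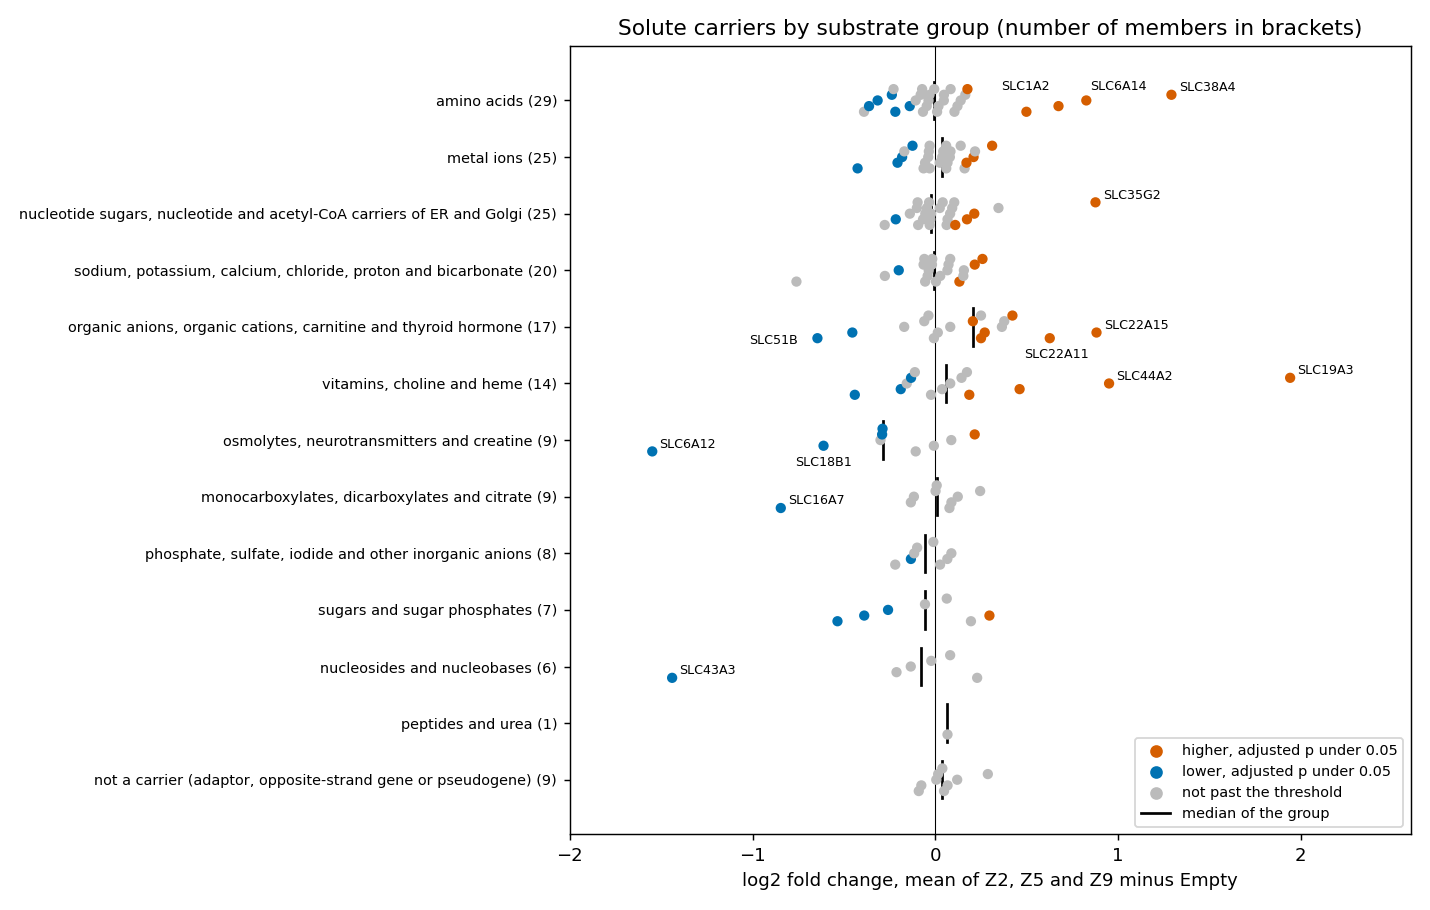
Log2 fold change of each of the 179 members, mean of Z2, Z5 and Z9 minus Empty, on the horizontal axis, by substrate group on the vertical axis, with the number of members in brackets. Orange points rose and blue points fell at an edgeR adjusted p under 0.05, grey points did not pass, and the black line is the group's median; most medians lie near 0, with organic anions and cations at 0.21 and osmolytes and neurotransmitters at -0.29.

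Per kilobase of exon, the carriers with the highest levels were amino acid and metal carriers, in the ZHX3-labelled lines and in Empty alike. SLC38A2, a sodium-coupled carrier of small neutral amino acids, stood at 416 CPM per kilobase in the labelled lines and 427 in Empty. SLC7A5, the light chain of the exchanger for large neutral amino acids, had 222 CPM per kilobase in the labelled lines and 215 in Empty. SLC39A14, a zinc, iron and manganese importer abundant in liver, had 168 in the labelled lines and 172 in Empty. The glutamine carrier SLC1A5 had 142 CPM per kilobase in the labelled lines and 133 in Empty. Of these 4, none was called, with log2 fold changes from 0.084 for SLC1A5 and 0.047 for SLC7A5 to -0.038 for SLC38A2 and -0.039 for SLC39A14. Reads of SLC7A5 may be shared with its pseudogene SLC7A5P2, and those of SLC6A8 with its copies, so their counts are uncertain.

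Among amino acid carriers, of 29 tested members 5 rose (17.2%, all genes 13%), 5 fell (17.2%, all genes 12.6%) and 19 did not pass. Their median log2 fold change was -0.0061. The largest rise was that of SLC38A4, a liver-enriched carrier of small neutral amino acids. The gene, at chr12:46764761-46832431 in GRCh38.p14, had 8.32, 10.9 and 9.16 CPM in Z2, 7.87, 8.58 and 10.97 in Z5 and 9.52, 11.4 and 10.7 in Z9, against 4.41, 3.73 and 3.77 in Empty. All 9 labelled wells were above the Empty wells, and the log2 fold change was 1.29 ± 0.12, adjusted p = 3.6e-07 by edgeR. SLC1A2, a high-affinity glutamate carrier best known from astrocytes, at chr11:35251205-35420507 in GRCh38.p14, had 87.2, 94.4 and 97.05 CPM in Z2, 85.6, 103 and 104 in Z5 and 109.8, 97.3 and 91.8 in Z9, against 54.7, 59.5 and 67.3 in Empty. Again no labelled well overlapped Empty (0.67 ± 0.075, adjusted p = 9.6e-06). SLC43A2, which lets large neutral amino acids leave the cell, averaged 50.6 ± 6.99 CPM in Z2, 55.5 ± 8.40 in Z5 and 47.5 ± 4.41 in Z9, against 36.1 ± 2.28 in Empty (SD, n = 3), a rise of 0.50 ± 0.10, adjusted p = 0.00277. SLC1A4, an exchanger for alanine, serine and cysteine, rose by 0.18 (adjusted p = 0.0303), with 0.075 in Z2, 0.12 in Z5 and 0.33 in Z9.

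SLC6A14, a carrier of neutral and cationic amino acids driven by sodium and chloride, had 39.99, 30.3 and 29.3 CPM in Z2, 39.1, 28.9 and 24.7 in Z5 and 40.3, 23.9 and 23.8 in Z9, against 21.9, 13.7 and 17.2 in Empty. Well a was the highest of its line in all 4 lines, and the rise (0.83 ± 0.24, adjusted p = 0.0329) was called against a wide spread. The 5 amino acid carriers that fell include SLC38A6, a member of the SLC38 family whose substrates are less well known, at 4.94 ± 0.147 CPM in Z2, 5.05 ± 0.370 in Z5 and 5.66 ± 0.230 in Z9, against 6.71 ± 0.722 in Empty (-0.36 ± 0.081, adjusted p = 0.00332). SLC16A10, which carries aromatic amino acids, had a log2 fold change of -0.32 ± 0.076, adjusted p = 0.00569. Of carriers at the lysosome, SLC36A1, a proton-coupled exporter of small amino acids, fell by 0.22 (adjusted p = 0.00699), and SLC38A7, an exporter of glutamine, by 0.24 (adjusted p = 0.00704). SLC7A6, an exchanger of cationic for neutral amino acids that overlaps SLC7A6OS on the opposite strand, fell by 0.14 (adjusted p = 0.0490). Leaving out single libraries ended some of these calls, with the adjusted p in brackets: SLC16A10 without Empty a (0.0684), SLC38A7 without Empty c (0.0508), SLC7A6 without Z2 c, Z5 b, Z5 c, Z9 b, Z9 c, Empty a, Empty b or Empty c (0.0732 to 0.179), SLC1A4 without Z2 c, Empty a or Empty b (0.0539 to 0.154) and SLC6A14 without Empty b or Empty c (0.105 to 0.125).

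The amino acid response, the transcripts that rise through the factor ATF4 when amino acids are short, was taken as a list of 22 tested genes. Of these 1 rose (4.55%, all genes 13%), VLDLR (0.94), and 2 fell (9.09%, all genes 12.6%), NUPR1 (-0.81) and GDF15 (-0.34). The list's median log2 fold change was 0.00042.

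**Figure D2:**
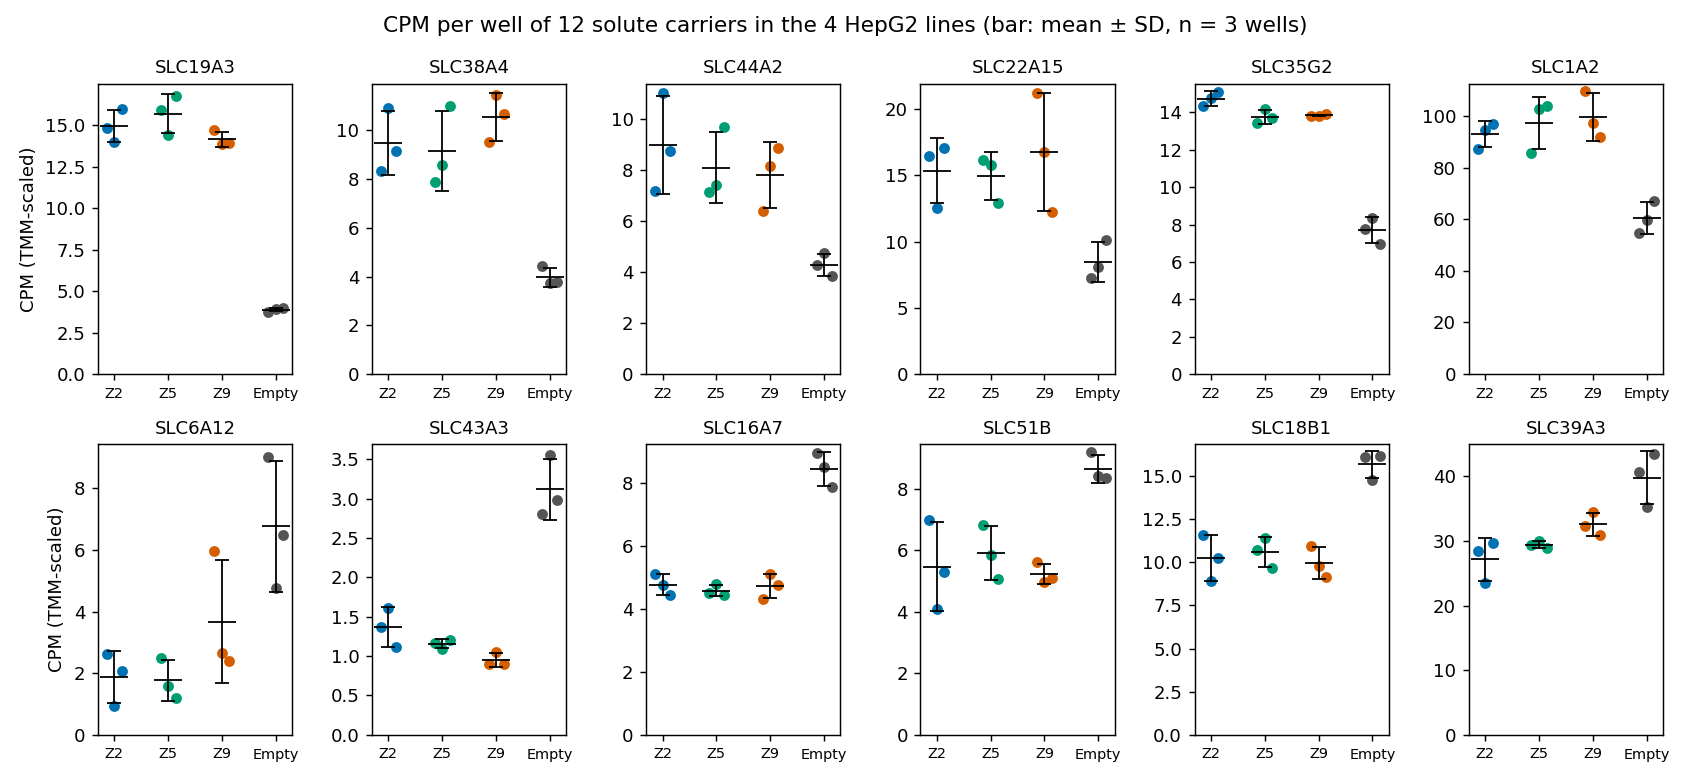
CPM on TMM-scaled library sizes (vertical axis, from 0) of 12 solute carriers in each well of Z2, Z5, Z9 and Empty (horizontal axis); points are wells and bars the mean ± SD of 3 wells. The upper row shows carriers higher than Empty, among them SLC19A3 with 13.9 to 16.7 CPM in the labelled wells and 3.77 to 3.95 in Empty, and the lower row shows lower ones, in which only SLC6A12 has a labelled well above an Empty well.

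Metal ion carriers moved in both directions: of 25 tested members 3 rose (12%, all genes 13%), 4 fell (16%, all genes 12.6%) and 18 did not pass. Their median log2 fold change was 0.038. SLC39A3, a zinc importer of the plasma membrane, showed the largest fall. The gene, at chr19:2732524-2740076 in GRCh38.p14, had 28.4, 23.4 and 29.6 CPM in Z2, 29.3, 29.99 and 28.9 in Z5 and 32.3, 34.5 and 30.97 in Z9, against 40.6, 35.3 and 43.4 in Empty. Every labelled well was below every Empty well, with a log2 fold change of -0.43 ± 0.067, adjusted p = 1.9e-04. SLC39A3 lies in the first 6 Mb of chromosome 19, where 86 of 164 other tested genes fell and 8 rose (median log2 fold change -0.21), and the part of that neighbourhood in its fall was not tested. SLC30A1, which exports zinc from the cell, fell by 0.21 (adjusted p = 0.00796). SLC39A9, a zinc carrier of Golgi and plasma membrane, fell by 0.12 (adjusted p = 0.0393), and SLC39A7, which releases zinc from the endoplasmic reticulum, by 0.18 (adjusted p = 0.0475).

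Among those that rose, SLC30A10, the manganese exporter of hepatocytes, had 30.6, 30.1 and 31.6 CPM in Z2, 29.7, 33.7 and 31.5 in Z5 and 30.8, 30.3 and 26.6 in Z9, against 25.3, 21.7 and 26.8 in Empty. Of the labelled wells only Z9 c fell below an Empty well, Empty c (0.31 ± 0.065, adjusted p = 0.00194). The zinc carriers SLC39A11 and SLC39A5 rose by 0.17 (adjusted p = 0.00957) and 0.21 (adjusted p = 0.0171). Single libraries decided the calls of SLC39A11 without Empty b (0.0726), SLC39A5 without Empty a or Empty b (0.0745 to 0.0949), SLC30A1 without Empty a (0.0871), SLC39A9 without Z2 c, Z5 b, Z5 c, Z9 b, Z9 c, Empty a or Empty b (0.0543 to 0.198) and SLC39A7 without Z2 c, Z5 b, Z5 c, Z9 b, Z9 c, Empty a, Empty b or Empty c (0.0562 to 0.172). Of 8 tested genes of a zinc list, which holds the zinc-sensing factor MTF1 and metallothioneins, 0 rose and 3 fell (37.5%, all genes 12.6%): MT1M (-2.13), MT1G (-0.58) and MT1F (-0.31). Metallothionein counts are uncertain, since the copies are near-identical.

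Vitamin, choline and heme carriers held the largest rise of all members. In this group, of 14 tested members 4 rose (28.6%, all genes 13%), 3 fell (21.4%, all genes 12.6%) and 7 did not pass. Their median log2 fold change was 0.059. SLC19A3, a high-affinity thiamine carrier, at chr2:227683763-227718028 in GRCh38.p14, had 14.8, 14.01 and 15.97 CPM in Z2, 15.9, 14.4 and 16.7 in Z5 and 14.7, 13.9 and 13.9 in Z9, against 3.77, 3.92 and 3.95 in Empty. The lowest labelled well, at 13.9 CPM, stood far above the highest Empty well, at 3.95 CPM, and the mean fold was 3.84 (log2 1.94 ± 0.075, adjusted p = 1.3e-11). The log2 fold changes of the lines were 1.94 in Z2, 2.01 in Z5 and 1.87 in Z9. The other thiamine carrier, SLC19A2, stood at a log2 fold change of -0.024 (adjusted p = 0.726), and the folate carrier SLC19A1 of the same family fell by 0.19 (adjusted p = 0.0368).

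The SLC44 family, named for choline transport, rose in part. SLC44A2, at chr19:10602455-10644557 in GRCh38.p14, had 7.20, 11.03 and 8.75 CPM in Z2, 7.14, 7.43 and 9.69 in Z5 and 6.38, 8.18 and 8.85 in Z9, against 4.28, 4.73 and 3.86 in Empty. No labelled well overlapped Empty (0.95 ± 0.14, adjusted p = 2.0e-04). SLC44A3 rose by 0.46 (adjusted p = 0.00154), while SLC44A1, the best described choline carrier of the family, SLC44A5 and SLC44A4 had 0.037, 0.17 and -0.16 and did not pass. The sodium-coupled ascorbate carriers went opposite ways: SLC23A2, the widely expressed form, rose by 0.19 (adjusted p = 0.00545), and SLC23A1, the epithelial form, fell to 4.80 ± 0.283 CPM in Z2, 5.52 ± 0.487 in Z5 and 5.54 ± 0.511 in Z9, against 7.14 ± 1.13 in Empty (-0.44 ± 0.094, adjusted p = 0.00240). SLC5A6, which carries biotin and pantothenate, fell by 0.13 (adjusted p = 0.02997). Single libraries ended the calls of SLC5A6 without Empty a, Empty b or Empty c (0.06004 to 0.118), SLC19A1 without Z2 c, Z5 b, Z5 c, Z9 c, Empty a, Empty b or Empty c (0.0507 to 0.131) and SLC23A2 without Empty a or Empty b (0.0514 to 0.0527).

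Carriers of organic anions, organic cations, carnitine and thyroid hormone had 17 tested members. Of these 6 rose (35.3%, all genes 13%), 2 fell (11.8%, all genes 12.6%) and 9 did not pass, with a median log2 fold change of 0.21. SLC22A15, a carrier of organic zwitterions and cations, at chr1:115976513-116070054 in GRCh38.p14, had 16.5, 12.6 and 17.05 CPM in Z2, 16.2, 15.8 and 12.9 in Z5 and 21.2, 16.8 and 12.3 in Z9, against 7.22, 8.06 and 10.1 in Empty. All labelled wells exceeded all Empty wells (0.88 ± 0.17, adjusted p = 0.00319). SLC22A11, an organic anion transporter best known from kidney and placenta, had 4.74, 3.98 and 3.41 CPM in Z2, 4.05, 4.26 and 4.12 in Z5 and 4.24, 4.44 and 5.51 in Z9, against 2.51, 2.56 and 3.23 in Empty. The groups did not overlap here either (0.63 ± 0.12, adjusted p = 0.00112). SLCO2B1, a hepatic uptake carrier of steroid sulfates and statins, averaged 41.8 ± 3.37 CPM in Z2, 41.7 ± 3.81 in Z5 and 39.6 ± 2.56 in Z9, against 30.6 ± 2.18 in Empty (0.42 ± 0.065, adjusted p = 1.6e-04), and SLC47A1, which exports organic cations into bile, rose by 0.25 ± 0.040, adjusted p = 2.3e-04. SLC22A18, which overlaps SLC22A18AS, rose by 0.21 (adjusted p = 0.0390), and SLCO4C1, a carrier of thyroid hormone and digoxin, by 0.27 (adjusted p = 0.0104), though Z9 stood near Empty. SLC22A31, at 107 CPM in Z2, 119.7 in Z5 and 126 in Z9, against 132 in Empty, did not pass (-0.17, adjusted p = 0.371).

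Both subunits of the organic solute transporter, the basolateral exporter of bile acids, fell. SLC51B, the small subunit, at chr15:65045387-65053397 in GRCh38.p14, had 6.97, 4.09 and 5.31 CPM in Z2, 6.83, 5.83 and 5.07 in Z5 and 5.61, 4.96 and 5.11 in Z9, against 9.18, 8.41 and 8.36 in Empty. The labelled wells were all below the Empty wells (-0.65 ± 0.12, adjusted p = 7.1e-04). SLC51A, the larger subunit, had 23.7, 34.4 and 34.7 CPM in Z2, 22.2, 30.7 and 30.1 in Z5 and 19.8, 23.9 and 24.4 in Z9, against 31.2, 40.95 and 38.3 in Empty. Its labelled and Empty wells overlapped, and its log2 fold change was -0.45 ± 0.14, adjusted p = 0.0325. Calls in this group ended for SLC51A without Empty b or Empty c (0.101 to 0.133), SLC22A18 without Z5 b, Z5 c, Z9 c, Empty a or Empty c (0.0593 to 0.301) and SLCO4C1 without Empty a or Empty b (0.0585 to 0.103).

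Carriers of osmolytes, neurotransmitters and creatine fell more than they rose for the mean of the lines. Of 9 tested members 1 rose (11.1%, all genes 13%), 4 fell (44.4%, all genes 12.6%) and 4 did not pass. The median log2 fold change was -0.29. By line, 4 fell in Z2, 3 in Z5 and 1 in Z9 (all genes 11.5%, 6.68% and 9.58%), with a median of -0.093 in Z9. SLC6A12, which takes up betaine and GABA, at chr12:183848-214157 in GRCh38.p14, had 2.61, 0.941 and 2.09 CPM in Z2, 2.50, 1.59 and 1.21 in Z5 and 5.97, 2.64 and 2.40 in Z9, against 9.03, 4.78 and 6.49 in Empty. The wells of each line scattered widely, well a was the highest in all 4 lines, and Z9 a was above Empty b. The log2 fold change was -1.55 ± 0.34, adjusted p = 0.00968, with -1.84 in Z2, -1.93 in Z5 and -0.88 in Z9. By itself Z9 did not pass (adjusted p = 0.194). SLC18B1, a vesicular carrier of polyamines, at chr6:132769370-132798637 in GRCh38.p14, had 11.6, 8.90 and 10.3 CPM in Z2, 10.7, 11.4 and 9.64 in Z5 and 10.95, 9.77 and 9.14 in Z9, against 16.1, 14.8 and 16.1 in Empty. All labelled wells lay below Empty (-0.61 ± 0.077, adjusted p = 1.9e-05). SLC6A6, the taurine carrier, and SLC18A2, the vesicular monoamine carrier, fell by 0.29 (adjusted p = 0.0204) and 0.29 (adjusted p = 0.0226). The serotonin carrier SLC6A4 rose by 0.22 (adjusted p = 0.0373). The creatine carrier SLC6A8, at 629.6 CPM in Z2, 635 in Z5 and 564 in Z9, against 573 in Empty, did not pass (0.087, adjusted p = 0.383). Calls that ended with 1 library left out were those of SLC6A4 without Z2 c, Z5 b, Z5 c, Z9 b, Empty a, Empty b or Empty c (0.05004 to 0.188), SLC6A12 without Empty a (0.0638), SLC6A6 without Empty a or Empty c (0.0741 to 0.1003) and SLC18A2 without Empty a, Empty b or Empty c (0.0556 to 0.0896).

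Monocarboxylate, dicarboxylate and citrate carriers had 1 call. Of 9 tested members 0 rose (all genes 13%), 1 fell (11.1%, all genes 12.6%) and 8 did not pass, with a median log2 fold change of 0.0074. SLC16A7, a high-affinity carrier of lactate and pyruvate, at chr12:59596029-59789841 in GRCh38.p14, had 5.11, 4.76 and 4.44 CPM in Z2, 4.51, 4.78 and 4.43 in Z5 and 4.32, 5.10 and 4.75 in Z9, against 8.95, 8.51 and 7.86 in Empty. No labelled well reached the lowest Empty well (-0.85 ± 0.077, adjusted p = 4.2e-07). Its relative SLC16A1, the widely expressed lactate carrier, averaged 190.2 ± 4.23 CPM in Z2, 190.3 ± 1.27 in Z5 and 181 ± 1.94 in Z9, against 178 ± 2.51 in Empty and did not pass (0.077 ± 0.036, adjusted p = 0.129). Part of the SLC16A1 reads may belong to its opposite-strand gene.

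Nucleoside and nucleobase carriers also had 1 call. Of 6 tested members 0 rose (all genes 13%), 1 fell (16.7%, all genes 12.6%) and 5 did not pass, with a median log2 fold change of -0.078. SLC43A3, a purine nucleobase carrier, at chr11:57406954-57427580 in GRCh38.p14, had 1.37, 1.61 and 1.11 CPM in Z2, 1.17, 1.09 and 1.21 in Z5 and 0.904, 1.05 and 0.903 in Z9, against 2.81, 3.55 and 2.99 in Empty. The Empty wells were all higher than the labelled ones (-1.44 ± 0.13, adjusted p = 2.5e-07), with -1.19 in Z2, -1.43 in Z5 and -1.70 in Z9. The equilibrative nucleoside carrier SLC29A1 averaged 48.5 CPM in Z2, 45.7 in Z5 and 46.2 in Z9, against 47.5 in Empty and did not pass (-0.022, adjusted p = 0.816).

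Sugar and sugar phosphate carriers gave 4 calls. Of 7 tested members 1 rose (14.3%, all genes 13%), 3 fell (42.9%, all genes 12.6%) and 3 did not pass, with a median log2 fold change of -0.057. By line, 1 fell in Z2, 0 in Z5 and 3 in Z9, where 11.5%, 6.68% and 9.58% of all genes fell. SLC50A1, a sugar carrier of the SWEET family, averaged 28.3 ± 1.75 CPM in Z2, 28.2 ± 1.98 in Z5 and 26.7 ± 0.466 in Z9, against 22.6 ± 1.001 in Empty and rose by 0.30 ± 0.055, adjusted p = 7.8e-04. SLC5A9, a sodium-coupled carrier of mannose and glucose, had 36.1, 32.8 and 38.1 CPM in Z2, 41.8, 39.5 and 40.9 in Z5 and 41.3, 38.5 and 35.5 in Z9, against 47.01, 44.4 and 45.8 in Empty. All labelled wells were below Empty (-0.26 ± 0.052, adjusted p = 0.00149). SLC5A9 lies in the first 90 Mb of chromosome 1, where 168 of 706 other tested genes fell and 54 rose (median log2 fold change -0.082). The part of that neighbourhood in its fall was not tested. SLC45A3, known as a prostate antigen, fell by 0.54 (adjusted p = 0.00461). SLC37A2, an exchanger of glucose 6-phosphate for phosphate, fell by 0.39 (adjusted p = 0.00887), a call that ended without Empty a (adjusted p = 0.120).

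The group of nucleotide sugar, nucleotide and acetyl-CoA carriers, named for the endoplasmic reticulum and Golgi, gave more calls higher than lower. It also took in SLC17A9, a carrier of vesicles. In this group of 25 tested members 4 rose, 1 fell and 20 did not pass, with a median log2 fold change of -0.023, so that 16% rose and 4% fell, beside 13% and 12.6% of all genes. SLC35G2, whose substrate is not established, at chr3:136819126-136855888 in GRCh38.p14, had 14.3, 14.8 and 15.1 CPM in Z2, 13.4, 14.2 and 13.7 in Z5 and 13.8, 13.8 and 13.9 in Z9, against 7.77, 8.34 and 6.97 in Empty. Its labelled wells formed a tight set above Empty (0.88 ± 0.065, adjusted p = 3.7e-08). SLC35B3, which brings activated sulfate into the Golgi, rose by 0.21 (adjusted p = 0.00441), SLC35D2, a nucleotide sugar carrier, by 0.17 (adjusted p = 0.00448) and SLC35E1 by 0.11 (adjusted p = 0.0480). The vesicular nucleotide carrier SLC17A9 fell to 281 ± 43.7 CPM in Z2, 303 ± 6.90 in Z5 and 305 ± 31.2 in Z9, against 344 ± 8.05 in Empty (-0.22 ± 0.074, adjusted p = 0.0430). The calls of SLC17A9 and SLC35E1 ended without most single libraries, SLC17A9 without Z2 c, Z5 a, Z5 b, Z5 c, Z9 b, Z9 c, Empty a, Empty b or Empty c (0.0535 to 0.142) and SLC35E1 without Z2 c, Z5 a, Z5 b, Z5 c, Z9 a, Z9 b, Empty a, Empty b or Empty c (0.0601 to 0.207).

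Carriers of sodium, potassium, calcium, chloride, protons and bicarbonate were tested as a further group: of 20 tested members 3 rose, 1 fell and 16 did not pass, with a median log2 fold change of -0.0069. The shares that rose and fell were 15% and 5%, beside 13% and 12.6% of all genes. SLC12A7, a potassium-chloride cotransporter, had 104, 102 and 113 CPM in Z2, 104, 113 and 117 in Z5 and 115, 119 and 115 in Z9, against 93.9, 95.4 and 97.7 in Empty. All labelled wells lay above all Empty wells (0.22 ± 0.044, adjusted p = 0.00179). SLC12A4 of the same family, at 149 CPM in Z2, 162 in Z5 and 147 in Z9, against 154 in Empty, did not pass (-0.019, adjusted p = 0.791). SLC9B2, a sodium-proton exchanger, rose by 0.13 (adjusted p = 0.0498), and SLC4A2, a chloride-bicarbonate exchanger, fell by 0.20 (adjusted p = 0.0150). By line, 1 member of this group fell in Z2, 1 in Z5 and 0 in Z9, where 11.5%, 6.68% and 9.58% of all genes fell. Single libraries ended the calls of SLC9B2 without Z2 c, Z5 a, Z5 b, Z5 c, Z9 a, Z9 b, Z9 c, Empty a, Empty b or Empty c (0.0585 to 0.295) and SLC4A2 without Empty a or Empty b (0.0568 to 0.0935). SLC12A3, a sodium-chloride cotransporter known from the kidney and the member nearest the level limit, had a larger difference that did not pass (-0.76 ± 0.31, adjusted p = 0.0847).

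Phosphate, sulfate and other inorganic anion carriers gave 1 call. Of 8 tested members 0 rose (all genes 13%), 1 fell (12.5%, all genes 12.6%) and 7 did not pass, with a median log2 fold change of -0.055. In the single lines 2 fell in Z2, 0 in Z5 and 0 in Z9, where 11.5%, 6.68% and 9.58% of all genes fell. SLC20A2, a sodium-phosphate cotransporter, averaged 69.9 ± 1.69 CPM in Z2, 76.7 ± 1.49 in Z5 and 83.8 ± 0.789 in Z9, against 84.1 ± 4.48 in Empty and fell by 0.13 (adjusted p = 0.0199), a call that ended without Empty a or Empty b (adjusted p = 0.124 to 0.142). Its relative SLC20A1 had 405 CPM in Z2, 383 in Z5 and 322 in Z9, against 362 in Empty and did not pass (0.026, adjusted p = 0.867). The only peptide carrier, SLC15A4 of the lysosome, averaged 32.5 ± 1.75 CPM in Z2, 32.3 ± 0.831 in Z5 and 32.2 ± 0.608 in Z9, against 30.99 ± 0.807 in Empty and did not pass (0.062, adjusted p = 0.349). Of the genes that only share the prefix, the scaffold protein SLC9A3R1 averaged 367 CPM in Z2, 395 in Z5 and 379.8 in Z9, against 368 in Empty (0.048, adjusted p = 0.390).

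Carriers that lack an SLC symbol were examined as a further list. Of 34 tested, 3 rose (8.82%, all genes 13%) and 7 fell (20.6%, all genes 12.6%), with a median log2 fold change of -0.066. Among them SV2A, a synaptic vesicle protein, had 0.89, MFSD6 0.48, UNC93A -0.96 and CLN3, a lysosomal membrane protein lost in a childhood neuronal disease, -0.37. A last list held 21 tested partners of carriers and subunits of the sodium pump, which keeps up the sodium gradient that many of these carriers use. Of these 6 rose (28.6%, all genes 13%) and 3 fell (14.3%, all genes 12.6%), with a median of 0.044. In Z9 by itself 3 rose (14.3%, all genes 9.66%) and 1 fell (4.76%, all genes 9.58%). FXYD5 (1.44) and ATP1B1 (0.28), the main beta subunit in epithelia, rose, and FXYD2 (-1.51), the gamma subunit, and ATP1B3 (-0.25) fell. NPTN, a chaperone subunit of monocarboxylate carriers, fell by 0.36.

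The 3 ZHX3-labelled lines also differed among themselves, mainly Z9 from Z2. Between Z9 and Z2, 12 members were higher in Z9 (6.7%, all genes 1.96%) and 4 lower (2.23%, all genes 3.21%), in all 8.94% of members and 5.17% of all genes. Between Z9 and Z5, 2 were higher in Z9 and 3 lower (all genes 0.432% and 1.09%), in all 2.79% of members and 1.52% of all genes. Between Z5 and Z2, edgeR and DESeq2 each called 0 members in either direction (all genes 0.00654% higher by edgeR), while 20 members (11.2%) had an unadjusted edgeR p under 0.05, as had 10.3% of all tested genes. The comparisons of Z9 with Z2 and of Z9 with Z5 share the Z9 wells. DESeq2 called 22 members higher and 15 lower for Z9 against Z2, where it called 5.4% and 6.98% of all genes, and 4 and 7 for Z9 against Z5, where it called 1.34% and 2.65%. Well Z2 b stood furthest from the other wells of its line, with a chi-square per degree of freedom of 44.4 against Z2 a and 31.1 against Z2 c, where no pair of same-line wells without it was above 20.2. Without Z2 b, edgeR called 3 members higher and 1 lower for Z9 against Z2, and 8 higher and 6 lower for Z9 against Z5. With 1 library left out, edgeR called between 0 members (without Z9 b) and 24 (without Z2 a) higher in Z9 than in Z2, and between 0 and 18 lower, in the same fits.

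**Figure D3:**
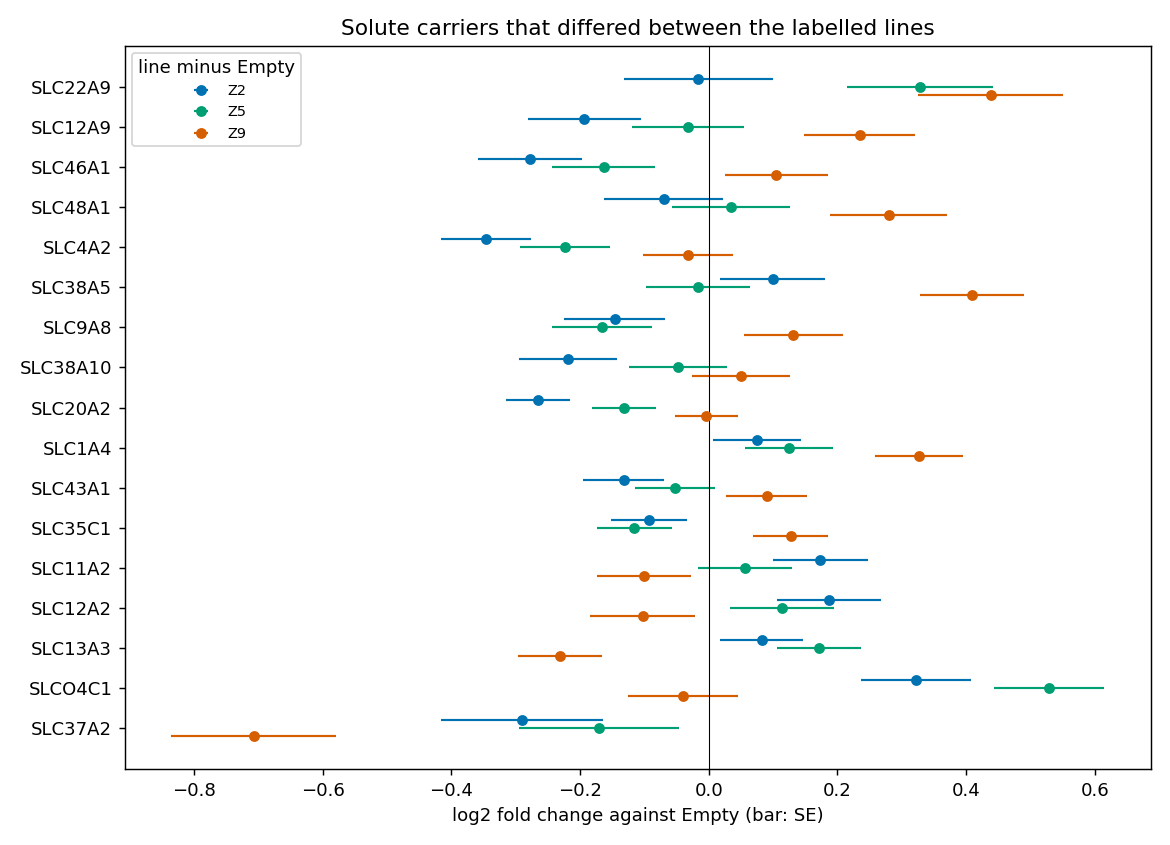
Log2 fold change against Empty with its SE (horizontal axis) of the solute carriers that differed between ZHX3-labelled lines (vertical axis), for Z2, Z5 and Z9. Z9 is lowest of the 3 for SLCO4C1 (-0.040) and SLC13A3 (-0.23) and highest for SLC38A5 (0.41), and the same 3 Empty wells enter every value.

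Since both comparisons use the Z9 wells, the values of the lines are given side by side for 4 members. SLCO4C1 had 41.6, 43.4 and 46.7 CPM in Z2, 46.2, 52.3 and 53.6 in Z5 and 33.6, 37.1 and 31.8 in Z9, against 31.3, 34.1 and 39.9 in Empty. Z9 stood near Empty and below the other lines, with a log2 difference of -0.57 ± 0.086, adjusted p = 0.00333 against Z5 and -0.36 ± 0.086, adjusted p = 0.0303 against Z2. SLC13A3, which takes up succinate and other dicarboxylates, had 41.9, 49.2 and 44.4 CPM in Z2, 47.04, 46.1 and 51.03 in Z5 and 33.8, 37.4 and 37.9 in Z9, against 42.5, 42.9 and 42.7 in Empty. Here Z9 was below both, with a log2 difference of -0.40 ± 0.065, adjusted p = 0.00452 against Z5 and -0.31 ± 0.065, adjusted p = 0.0173 against Z2. SLC38A5, a carrier of glutamine, asparagine and histidine, had 45.7, 36.9 and 40.1 CPM in Z2, 41.8, 36.04 and 35.4 in Z5 and 54.7, 48.6 and 48.9 in Z9, against 40.2, 35.9 and 38.5 in Empty. Z9 was the highest line, by 0.43 ± 0.081, adjusted p = 0.0148 against Z5 and 0.31 ± 0.081, adjusted p = 0.0391 against Z2. SLC35C1, the GDP-fucose carrier of the Golgi, had 32.4, 28.8 and 31.3 CPM in Z2, 31.4, 30.97 and 28.7 in Z5 and 35.1, 35.99 and 36.7 in Z9, against 32.1, 32.9 and 33.6 in Empty, higher in Z9 by 0.24 ± 0.059, adjusted p = 0.0457 against Z5 and 0.22 ± 0.059, adjusted p = 0.0414 against Z2.

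The further members higher in Z9 than in Z2 came from several groups. Among amino acid carriers these were SLC1A4 (0.25), SLC43A1 (0.22), a facilitated carrier of large neutral amino acids, and SLC38A10 (0.27). SLC46A1, the proton-coupled folate carrier, had 0.38, and SLC48A1, which moves heme out of lysosomes, 0.35. Ion and anion carriers were SLC12A9 (0.43), SLC4A2 (0.31), SLC9A8 (0.28), a sodium-proton exchanger, and SLC20A2 (0.26). SLC22A9, an organic anion carrier of liver, had 0.45. Lower in Z9 than in Z2 were also SLC11A2 (-0.27), an importer of ferrous iron, and SLC12A2 (-0.29), the sodium-potassium-chloride cotransporter. SLC37A2 was lower in Z9 than in Z5 (-0.54). The edgeR adjusted p of these further calls ran from 0.0121 (SLC20A2) to 0.0499 (SLC38A10). Of the 21 calls between lines, 20 ended without at least 1 of the libraries, the exception being SLCO4C1 between Z9 and Z5. Without Z9 a or Z9 b 18 of them ended, without Z2 b, Z2 c or Z9 c 12, without Z5 a, b or c 7, 13 or 12, and without Empty a, b or c 9, 10 or 9, with an adjusted p of up to 0.253. Leaving out Z2 a ended none.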

How the data were processed

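RNA was sequenced from 12 libraries, 3 wells of each of 4 HepG2 lines, grouped by title. The authors deposited raw counts, as whole numbers for each gene symbol; per the submitters' processing notes the authors used STAR, featureCounts and hg38. Versions, annotation, strand setting and the treatment of multi-mapping reads were not given in the sources used here, so counts of near-identical copies and of overlapping or antisense genes (SLC7A5, SLC35E2 and SLC35E2B, SLC6A8, SLC7A6, SLC22A18, SLC16A1, SLCO4A1, SLC5A3) are uncertain. Totals of 50864744 to 65428204 counts set the precision of low members.

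These counts went into edgeR 4.0.16 (R 4.3.3). Its filterByExpr, by group, kept 15289 genes, TMM scaled the libraries, and a robust quasi-likelihood fit took in all 12 libraries with 4 group means (8 residual degrees of freedom). In each comparison the Benjamini-Hochberg adjustment ran over all tested genes, with calls at an adjusted p under 0.05. SE is the size of the log2 fold change over the root of F. CPM shown are on TMM-scaled library sizes, and levels per kilobase use GENCODE 29 exon lengths. Gene positions and promoters are from RefSeq GRCh38.p14; either annotation may differ from that of the authors. The test was checked on simulated counts with independent wells. Those counts held no spread between lines and no shared difference of the well letters, so neither was checked.

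Members, lists and substrate groups were chosen with earlier results of these data known. SLC7A6OS and SLC26A10 were put with the non-carriers after the members were seen. Within each substrate group the rule named the member with the highest mean CPM, up to 3 higher and 3 lower called members and up to 2 that differed between labelled lines, by adjusted p. Outside that rule, SLC7A6, SLC38A7, SLC6A14, SLC39A7, SLC35E1, SLC22A15, SLC22A18, SLC18A2, SLC23A2, SLC43A1, SLC38A10, SLC9A8, SLC12A2, SLC12A3, SLC19A2, SLC44A1, SLC44A4, SLC44A5, SLC7A5 and SLC1A5 were named after their values were seen, as were the named genes of the further lists. SLC1A4 and SLCO4C1 came under the rule for their differences between lines and were named for their rise outside it. The values of 1 member that the rule named are not reported here.

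Other settings tried were size factors and the Wald test of DESeq2 1.42.0, all genes with 1 count, at least 1 CPM in 3 libraries, the replicate letter as a block, lines as units, member limits of 2 and 0.5 CPM and each library left out in turn. 2 more were added after the data were seen: the non-carriers left out, and the first 90 Mb of 1p and 6 Mb of 19p left out. Between wells of 1 line, counts had a chi-square per degree of freedom of 6.17 to 44.4, above sampling noise, so each library counts once. The 2 highest values, 44.4 and 31.1, were those of Z2 b with the other Z2 wells.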

Additional observations from a re-analysis of the deposited data

Results flagged for a closer look

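The calls between ZHX3-labelled lines were singled out because the difference itself passed the edgeR test. In log2, Z9 minus Z2, amino acid carriers differed by 0.31 ± 0.081 (SLC38A5), 0.27 ± 0.076 (SLC38A10), 0.25 ± 0.069 (SLC1A4) and 0.22 ± 0.063 (SLC43A1). Ion and phosphate carriers differed by 0.43 ± 0.087 (SLC12A9), 0.31 ± 0.070 (SLC4A2), 0.28 ± 0.078 (SLC9A8), 0.26 ± 0.049 (SLC20A2), -0.29 ± 0.081 (SLC12A2) and -0.27 ± 0.073 (SLC11A2). Among the remainder the values were 0.45 ± 0.11 for SLC22A9, 0.38 ± 0.081 for SLC46A1, 0.35 ± 0.092 for SLC48A1, 0.22 ± 0.059 for SLC35C1, -0.31 ± 0.065 for SLC13A3 and -0.36 ± 0.086 for SLCO4C1.

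For Z9 minus Z5 the values were 0.43 ± 0.081 for SLC38A5, 0.24 ± 0.059 for SLC35C1, -0.40 ± 0.065 for SLC13A3, -0.54 ± 0.13 for SLC37A2 and -0.57 ± 0.086 for SLCO4C1. All are log2 differences ± SE over 3 wells a line. In edgeR 20 of the 21 calls ended without at least 1 library, the highest adjusted p being 0.253, without Z5 c.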

How the results depend on the processing

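Counts of members higher and lower against Empty were compared between settings for the mean of the 3 lines and for each line. They stayed within 1.5 times under DESeq2 size factors, the DESeq2 Wald test, both filters and the replicate block. Both member limits and both added exclusions were applied to the mean of the 3 lines only, where the counts also stayed within 1.5 times. With lines as units 11 rose and 5 fell, against 27 and 26, and 37 of the 53 calls ended; 26 ended without at least 1 library. Z9 minus Z2 (12 higher, 4 lower) had 22 and 15 by the DESeq2 Wald test and 21 and 16 with the replicate block. Z9 minus Z5 (2 and 3) had 4 and 7 by DESeq2 and 5 and 8 with the block. Same-letter wells correlated at -0.101 to 0.173, over 0.1 in 5 of 18 pairs, and wells of different letters at -0.153 to 0.150. All pairs of a wells were positive, from 0.039 (Empty with Z9) to 0.173 (Z2 with Z9). The main fit did not take the letters as pairing, and the part of a shared difference of the a wells in the calls was not tested. No named member that was called changed direction in any of these settings, while SLC39A14, SLC29A1 and SLC20A1, not called, changed sign without Empty a and without 1 Z2 well.

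With each library left out in turn, members higher and lower ranged from 18 to 31 and 12 to 29 for the mean of the lines, 12 to 31 and 16 to 32 for Z2, 15 to 27 and 4 to 20 for Z5, and 15 to 29 and 11 to 22 for Z9. Between lines they ranged from 0 to 24 and 0 to 18 for Z9 minus Z2 and 0 to 8 and 1 to 6 for Z9 minus Z5, and stayed at 0 for Z5 minus Z2. The causes were not tested. With 3 wells and 1 line per vector, small changes near the threshold rest on single wells, and members near 1 CPM rest on few counts.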

Other observations

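The wells lettered a stood apart in all 4 lines for some members. In 12 of 179 members (6.7%) well a was the highest of its line in every line, and in 15 (8.38%) it was the lowest in every line. Over all 15289 tested genes the shares were 3.75% and 5.64%. Well b was highest in every line in 0 members and lowest in 2, and well c likewise in 0 and 2, where about 1% of all genes did either (0.968% to 1.18%). Among members with well a highest were SLC6A14, SLC6A12, SLC51B, SLC6A6, SLC39A14 and SLC38A5. Those with well a lowest included SLC16A6, SLC51A, SLCO2B1, SLC43A2, SLC45A3 and SLC20A1. SLC16A6, a monocarboxylate carrier, had 32.8, 72.6 and 52.1 CPM in Z2, 32.3, 47.97 and 55.3 in Z5 and 16.9, 29.1 and 30.3 in Z9, against 32.3, 53.7 and 41.6 in Empty. The labels do not say what the letters mark, and the genes here were named after their values were seen.

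By gene family, both members of the bile acid exporter SLC51 and both of the vesicular amine and polyamine carriers SLC18 fell for the mean of the lines, where 12.6% of all genes fell and 13% rose. The call of SLC51A ended without Empty b or c, and that of SLC18A2 without Empty a, b or c. Of 22 SLC35 members 4 rose and none fell, and of 11 SLC22 members 3 rose and none fell. Among these, the calls of SLC35E1 and SLC22A18 ended without single libraries. In SLC38 1 rose and 2 fell of 10, in SLC39 2 rose and 3 fell of 11, and in SLC7, which holds the exchangers that pair with SLC3A2, 1 of 7 fell.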
